A study of Arabidopsis thaliana with 8 samples.

Results

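The leaf transcripts of drought-treated VaNAC26-overexpressing (OE) Arabidopsis were compared with those of drought-treated wild type (WT) plants, to find which genes differed between the genotypes while the soil dried. The comparison took the 2 arrays labelled as OE at 5 d of drought (OE 5d) and the 2 arrays labelled as WT at 5 d of drought (WT 5d), which are 4 of the 8 arrays of the series. The other 4 arrays, from the same genotypes before drought (OE 0d and WT 0d), were used for the shared estimate of spread and for values set side by side. A gene was reported only where both OE 5d arrays lay on the same side of both WT 5d arrays, which is called "no overlap" here and is a description, not a test.

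WT was the Col-0 accession, and the OE plants were Col-0 carrying the coding sequence of VaNAC26, a NAC gene of the grapevine Vitis amurensis, behind the CaMV35S promoter, which drives expression in most cell types. All plants were grown in soil for 21 d before the last irrigation, and leaves of both genotypes were taken before drought (0 d) or at 5 d without water. Each OE sample was a pool of equal amounts of leaves from 3 independent T4 lines, so differences among the lines cannot be seen. The transcript of VaNAC26 itself was not analysed here. Plants watered until 5 d were not among the arrays, but both groups compared here had the same age and the same time without water. Nothing in the sources ties the replicates to separate plants. The p-values hence reflect how far these samples differ, and that spread may be technical.

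NAC proteins are plant-specific transcription factors, and many of them are induced by drought, salt, cold or abscisic acid. In drying leaves, abscisic acid induces genes for late embryogenesis abundant proteins, dehydrins and other protective proteins, while genes for cell division and cell wall extension decline as growth stops. Prolonged stress also brings up chaperones of the endoplasmic reticulum, detoxifying enzymes and genes of defence and senescence.

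RNA was hybridized to the Affymetrix ATH1 array, which measures each transcript with a group of short probes, the probe set, and the deposited value is 1 intensity per probe set and array. The array holds 22810 probe sets, and the 22746 that are not array controls were tested. Intensities ran from 2.91 to 13003, array medians lay between 36.2 and 38.2, and 47.8% of the values were under 32, which is taken here as close to background although background was not measured. A linear model of log2 intensity was fitted to all 8 arrays with limma, with 4 residual degrees of freedom, and Benjamini-Hochberg adjustment of the p-values ran over the 22746 probe sets. A log2 fold change is the mean log2 intensity of OE 5d minus that of WT 5d. "Rose" and "higher at the adjusted threshold" are used only for an adjusted p under 0.05. The leaf label was checked against its defining markers, of which 1 of 10 had a named probe set: the Rubisco activase gene RCA lay between 6992 and 9858 on the 4 arrays at 5 d. The root marker PYK10 lay between 10.4 and 25.2 on these arrays, the 1 named marker of flower and pollen lay between 4.81 and 10.7, and no marker of seed or shoot apex had a named probe set.

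The OE 5d pair was the least alike of the 4 pairs of replicates. They were over 2-fold apart at 1294 probe sets, against 143 for WT 5d, 87 for WT 0d and 79 for OE 0d. Both array values are given for most of the genes described below, because a group mean hides which array carries a difference. Some list members are given by their fold change alone, which does not show this. Fewer cells of a type and less RNA per cell cannot be told apart in such leaf samples.

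In all, 4457 probe sets (19.6% of those tested) lay higher in OE 5d than in WT 5d with no overlap, and 5223 (23.0%) lay lower, 9680 (42.6%) together. Most of these gaps were small: the nearest OE and WT arrays differed by a median of 1.08-fold among the higher and 1.09-fold among the lower probe sets, and by 1.000009-fold at the smallest. The study called a gene when its fold change was above 2 or below 0.5 and its p, not adjusted, was under 0.05, and 297 higher (1.31%) and 165 lower (0.725%) probe sets passed it in the limma fit. Of these, 9 higher and 2 lower probe sets overlapped between the groups and are not reported. The other 288 (1.27% of all) and 163 (0.717%), 451 in all, are described below, and 157 and 85 of them had a gene name.

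OE 5d replicate 1 lay farther from WT 5d than replicate 2 at most of these probe sets. Among the 288 higher ones this held for 248 (86.1%), with median log2 differences from the WT 5d mean of 1.85 for replicate 1 and 0.93 for replicate 2. Among the 163 lower ones it held for 155 (95.1%), with medians of -1.78 and -0.70. The arrays of the OE 5d pair were over 2-fold apart at 158 of the higher and 100 of the lower probe sets. Over all probe sets with no overlap, replicate 1 was the farther one at 73.1% of the higher and 73.5% of the lower.

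**Figure D1:**
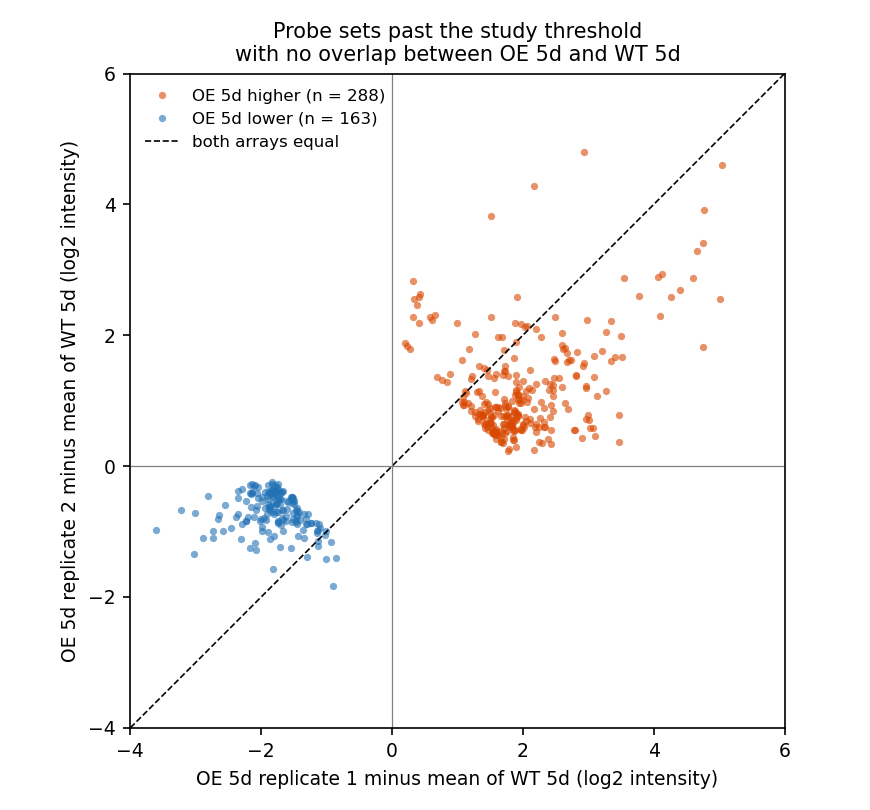
Difference of each OE 5d array from the mean of the 2 WT 5d arrays (log2 intensity, replicate 1 on the x axis and replicate 2 on the y axis) for the 288 higher and 163 lower probe sets past the study threshold with no overlap; 1 point is 1 probe set and the dashed line marks equal differences. Most points lie on the replicate 1 side of the line, 86.1% of the higher and 95.1% of the lower ones.

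At an adjusted p under 0.05 (limma, Benjamini-Hochberg), 11 probe sets (0.0484%) were higher in OE 5d and 0 (0%) were lower, while 3625 (15.9%) had an unadjusted p under 0.05. All 11 had nearest arrays over 2-fold apart, with log2 fold changes between 1.30 and 4.83, and 6 of them were under 32 on both WT 5d arrays. With the 4 arrays at 5 d alone the count was 0 in both directions. Counts with 1 array left out are given only with the processing checks at the end. They are a description, because a group of 1 array adds nothing to the estimate of spread.

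At5g19120, which encodes a protein of the aspartyl protease family, rose the most in absolute intensity among the 4 called genes with a name. Its WT 5d arrays read 276 and 320, and its OE 5d arrays 983 and 857, replicate 1 before replicate 2 here and below. The WT 5d mean was 298 ± 30.8 and the OE 5d mean was 920 ± 89.3 (± SD, n = 2 per group). Its log2 fold change was 1.63 with a standard error of 0.16 (limma, adjusted p = 0.0360). All 4 arrays were well over 32, and before drought the gene had been lower in OE, at 272 and 304 against 548 and 455 in WT 0d. At3g07350, whose function is not well described, lay at 124 and 112 in WT 5d and at 314 and 336 in OE 5d. Its means were 118 ± 8.32 and 325 ± 14.9 (± SD, n = 2 per group). The arrays within each group were close, and the log2 fold change was 1.46 with a standard error of 0.14 (limma, adjusted p = 0.0360).

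The other 2 called genes were dim in WT. At3g02480, a late embryogenesis abundant family gene induced by abscisic acid, lay at 6.09 and 7.44 in WT 5d and at 38.0 and 32.7 in OE 5d, which gave a log2 fold change of 2.39 with a standard error of 0.23 (limma, adjusted p = 0.0360). At3g13672, also known as SINA2 and related to ubiquitin ligases, lay at 11.9 and 12.9 in WT 5d and at 31.2 and 35.7 in OE 5d (log2 fold change 1.43, standard error 0.15, adjusted p = 0.0360). For both genes the OE 5d arrays were just around 32 and the WT 5d arrays far under it, and raising every value under 32 to 32 brought their log2 fold changes to 0.14 and 0.08. With a single array left out of the fit, the log2 fold changes of the 4 genes stayed between 1.34 and 2.53. With the 4 arrays at 5 d alone, their adjusted p ranged from 0.245 to 0.392 (limma, Benjamini-Hochberg).

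The remaining 7 called probe sets had no gene name in the annotation used here. The largest of their differences was that of 247717_at, at 20.1 and 28.9 in WT 5d and at 797 and 587 in OE 5d, which gave a log2 fold change of 4.83 with a standard error of 0.28 (limma, adjusted p = 0.00282). Its nearest OE and WT arrays were 20.3-fold apart, and before drought it lay between 70.5 and 113 in both genotypes. 258675_at lay at 124 and 54.3 in WT 5d and at 2233 and 1230 in OE 5d, which gave a log2 fold change of 4.34 (adjusted p = 0.0360). On all 4 arrays at 0 d it lay between 790 and 1964.

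Beyond the called genes, the largest differences among named genes that had no overlap, an unadjusted p under 0.05 and a mean of at least 64 in the brighter group are described next, 10 in each direction. None of these 20 passed the adjusted threshold (adjusted p = 0.0659 to 0.301, limma with Benjamini-Hochberg).

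The lipid transfer protein family, small secreted proteins that bind lipids at the cell surface, had 2 genes among them. At4g22490 lay at 17.7 and 14.5 in WT 5d and at 278 and 123 in OE 5d (log2 fold change 3.53, standard error 0.44, adjusted p = 0.0659). At1g62500 lay at 16.2 and 13.9 in WT 5d and at 204 and 90.9 in OE 5d (log2 fold change 3.19, adjusted p = 0.181). Both were under 32 on the WT 5d arrays, and the nearest OE and WT arrays were 6.96-fold and 5.63-fold apart.

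Thaumatin-like proteins, relatives of the pathogenesis-related PR-5, also had 2 genes in this group. At2g28790 lay at 75.1 and 36.6 in WT 5d and at 894 and 256 in OE 5d (log2 fold change 3.19, adjusted p = 0.120). ATLP-1 (At1g18250) lay at 35.2 and 18.9 in WT 5d and at 264 and 78.6 in OE 5d (log2 fold change 2.48, adjusted p = 0.143). Replicate 1 was the brighter OE 5d array for both, by a wide margin. OSM34, an osmotin gene of the same family, lay the other way, at 85.1 and 29.5 in WT 5d and at 23.0 and 22.6 in OE 5d (log2 fold change -1.14, adjusted p = 0.283), and passed the study threshold. The chitinase, glucanase and thaumatin list did not include At2g28790 or ATLP-1. OSM34 was the only one of its 3 named probe sets with no overlap.

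THI2.1, which encodes a jasmonate-induced antimicrobial thionin, lay at 9.54 and 9.84 in WT 5d and at 312 and 56.8 in OE 5d (log2 fold change 3.78, adjusted p = 0.189). It had no overlap at 5 d, but its replicates before drought were also far apart, at 70.6 and 13.4 in WT 0d and at 43.5 and 159 in OE 0d. At4g29030 lay at 41.4 and 23.6 in WT 5d and at 759 and 230 in OE 5d (log2 fold change 3.74, adjusted p = 0.110). At5g20740, of the pectin methylesterase inhibitor family, lay at 21.8 and 13.3 in WT 5d and at 165 and 70.6 in OE 5d (log2 fold change 2.67, adjusted p = 0.0977). The GDSL lipase gene At5g45670 lay at 25.9 and 10.8 in WT 5d and at 142 and 53.9 in OE 5d (log2 fold change 2.39, adjusted p = 0.139).

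At2g20870 and At5g22430, the latter of the Ole e 1 pollen allergen family of cell wall proteins, were the 2 genes of the 10 in which replicate 2 was the brighter OE 5d array. At2g20870 lay at 19.3 and 18.8 in WT 5d and at 146 and 531 in OE 5d (log2 fold change 3.87, adjusted p = 0.126). At5g22430 lay at 7.95 and 8.37 in WT 5d and at 36.8 and 159 in OE 5d (log2 fold change 3.23, adjusted p = 0.139). The other 8 were brighter on replicate 1.

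**Figure D2:**
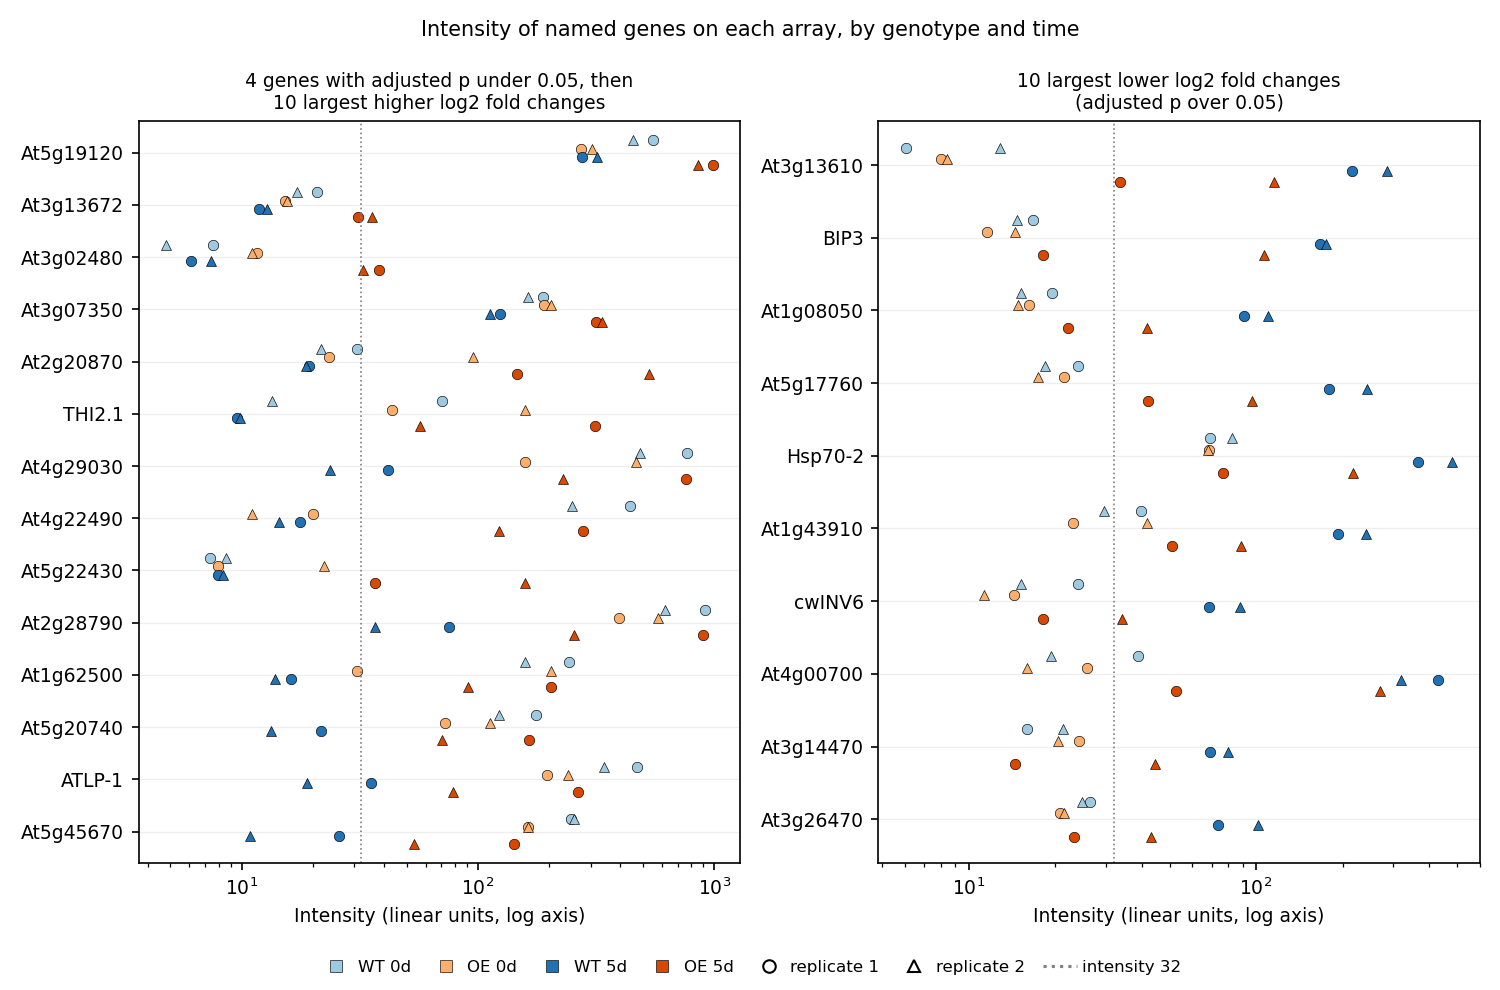
Intensity on each of the 8 arrays (log axis, linear units) of the 4 named genes with an adjusted p under 0.05 and the 10 largest higher log2 fold changes (left), and of the 10 largest lower ones (right); colours mark the group, symbols the replicate, and the dotted line an intensity of 32. The OE 5d arrays of At5g19120 and At3g07350 lie close together, at 983 and 857 and at 314 and 336, while in all 10 lower genes replicate 1 is the dimmer OE 5d array.

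Of the 10 lower genes, 7 were under 32 on all 4 arrays at 0 d. OE 5d replicate 1 was the dimmer of the pair in all 10, so the size of each difference rested more on that array than on replicate 2.

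At3g13610 encodes the oxygenase F6'H1, which makes the precursor of the coumarin scopoletin, and had the largest difference in this direction. It lay at 216 and 286 in WT 5d and at 33.6 and 115 in OE 5d (log2 fold change -2.0, standard error 0.55, adjusted p = 0.200). Without OE 5d replicate 1 its log2 fold change was -1.10. The coumarin gene was under 32 on all arrays before drought.

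Chaperones formed a further pair. BIP3, the stress-induced member of the endoplasmic reticulum luminal binding proteins, lay at 166 and 175 in WT 5d and at 18.2 and 107 in OE 5d (log2 fold change -1.95, standard error 0.66, adjusted p = 0.243). Hsp70-2, a cytosolic Hsp70, lay at 365 and 482 in WT 5d and at 76.5 and 218 in OE 5d (log2 fold change -1.70, standard error 0.41, adjusted p = 0.181). On OE 5d replicate 1 both were near their levels before drought, which lay between 11.6 and 16.7 for BIP3 and between 68.3 and 82.2 for Hsp70-2. Without replicate 1 the log2 fold changes were -0.68 and -0.94.

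AAA-type ATPases, which use ATP to remodel other proteins, also had 2 genes among the 10. At5g17760 lay at 180 and 244 in WT 5d and at 42.2 and 97.1 in OE 5d (log2 fold change -1.71, adjusted p = 0.144). At1g43910 lay at 192 and 242 in WT 5d and at 51.1 and 88.5 in OE 5d (log2 fold change -1.68, adjusted p = 0.139). Without OE 5d replicate 1 the log2 fold changes were -1.11 and -1.28. At1g08050, of the RING zinc finger family, lay at 90.7 and 110 in WT 5d and at 22.3 and 41.8 in OE 5d (log2 fold change -1.71, standard error 0.28, adjusted p = 0.101), and had the smallest unadjusted p of the 10 in the limma fit, 0.000308.

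The others were cwINV6, a fructan-degrading enzyme of the cell wall invertase family, at 68.6 and 87.6 in WT 5d and at 18.1 and 34.2 in OE 5d (log2 fold change -1.64, adjusted p = 0.139), and 3 genes with links to the membrane or to disease resistance. At3g14470, an NB-ARC resistance gene, lay at 69.0 and 79.6 in WT 5d and at 14.5 and 44.5 in OE 5d (log2 fold change -1.54, adjusted p = 0.205). At3g26470, which encodes a protein with an RPW8 domain, lay at 73.6 and 102 in WT 5d and at 23.2 and 43.1 in OE 5d (log2 fold change -1.45, adjusted p = 0.133). At4g00700, of the family of multiple C2 domain proteins, lay at 430 and 318 in WT 5d and at 52.5 and 270 in OE 5d (log2 fold change -1.64, adjusted p = 0.301). In this last gene the OE 5d pair was uneven, as it was in BIP3, and without replicate 1 its log2 fold change was -0.45.

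A stricter view of separation is the fold between the nearest arrays of the groups. It was over 2 for 75 higher (0.330%) and 9 lower (0.0396%) probe sets, all of which had also passed the study threshold. Of the 75, 42 had a name and 41 were under 32 on both WT 5d arrays. Of the 9 lower ones, 7 had a name, among them At1g08050, At1g43910 and cwINV6. The other 4 are named after their values were seen. All but At2g44240 were under 32 on the 4 arrays at 5 d. At3g28510, a further AAA-type ATPase gene, lay at 30.0 and 24.6 in WT 5d and at 7.66 and 9.12 in OE 5d (log2 fold change -1.70, adjusted p = 0.0659), and At3g60470 at 25.3 and 25.1 against 11.4 and 12.5 (log2 fold change -1.08, adjusted p = 0.0935). At1g72540, of a protein kinase family, lay at 19.3 and 22.6 in WT 5d and at 9.55 and 8.93 in OE 5d (log2 fold change -1.18, adjusted p = 0.112). At2g44240 lay at 43.8 and 45.1 in WT 5d and at 15.3 and 18.7 in OE 5d (log2 fold change -1.39, adjusted p = 0.185). In all 4 the OE 5d arrays were close to each other, and both lay well below both WT 5d arrays.

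Gene lists were then used to describe groups of related genes, by how many named members lay higher or lower with no overlap and by the median of their log2 fold changes. Over all probe sets tested these were 19.6% higher, 23.0% lower and a median of -0.0042. The platform annotation named fewer than 80% of the genes of every list, so counts cover the named members only, and 20 of the 38 lists had 4 or more named probe sets. No list member passed the adjusted threshold.

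Cold-regulated genes and dehydrins encode hydrophilic proteins that protect membranes and enzymes in cold or dehydrated cells. Of 12 named members, 6 lay higher in OE 5d, 0 lower and 6 overlapped, with a median log2 fold change of 0.76 (1.11 with OE 5d replicate 1 alone and 0.50 with replicate 2 alone), and 4 of the 6 passed the study threshold. COR15A, whose product stabilizes chloroplast membranes, lay at 214 and 113 in WT 5d and at 874 and 474 in OE 5d (log2 fold change 2.05, standard error 0.35, limma adjusted p = 0.109). Its neighbour in the genome, COR15B, lay at 161 and 79.8 in WT 5d and at 342 and 212 in OE 5d (log2 fold change 1.25, adjusted p = 0.206). The dehydrin gene COR47 lay at 520 and 395 in WT 5d and at 788 and 952 in OE 5d (log2 fold change 0.93, adjusted p = 0.137).

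The COR47 arrays differed less within each group than those of COR15A, and OE 5d replicate 2 was its brighter array. At4g30650 and At4g30660, 2 adjacent genes of the low temperature and salt responsive family of small membrane proteins, lay higher by log2 fold changes of 1.78 and 1.26, with adjusted p = 0.230 and 0.240. At4g30650 lay at 82.6 and 37.1 in WT 5d and at 359 and 101 in OE 5d, and At4g30660 at 318 and 136 against 695 and 354. For both, OE 5d replicate 2 lay nearer to WT 5d replicate 1 than to OE 5d replicate 1. The sixth, the dehydrin gene At4g38410, was near background on all 4 arrays, between 9.35 and 12.3.

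LTI30, another dehydrin gene of this list, overlapped: it lay at 72.9 and 48.4 in WT 5d and at 209 and 47.4 in OE 5d. COR413IM1, a cold-regulated gene for a protein of the chloroplast membrane, is not counted in the list, because its probe set was named only through the study's table of genes that differed. It lay at 227 and 107 in WT 5d and at 517 and 426 in OE 5d (log2 fold change 1.59, adjusted p = 0.133). Of 27 Arabidopsis genes that the study names in its text, 10 had a named probe set, and 5 lay higher with no overlap, COR15A, COR413IM1, ATLP-1, THI2.1 and the sugar transporter gene SWEET4, with 0 lower. The study chose these genes on these samples, so their direction is not independent evidence.

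Proteins of the endoplasmic reticulum that fold secreted proteins or remove misfolded ones lay on the lower side or overlapped. Of 14 named probe sets of 13 genes, 11 lay lower in OE 5d, 0 higher and 3 overlapped, with a median log2 fold change of -0.39 (-0.62 with OE 5d replicate 1 alone and -0.21 with replicate 2 alone). The differences were small, between -1.11 and -0.10. At4g16660, an Hsp70 of the endoplasmic reticulum, lay at 175 and 222 in WT 5d and at 56.7 and 146 in OE 5d (log2 fold change -1.11, adjusted p = 0.260). The calreticulin gene CRT1b, whose product binds calcium and glycoproteins, lay at 990 and 1052 in WT 5d and at 407 and 882 in OE 5d (log2 fold change -0.77, adjusted p = 0.296).

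The membrane-bound transcription factors of the unfolded protein response pointed the same way at lower folds. BZIP17 lay at 163 and 157 in WT 5d and at 82.1 and 133 in OE 5d (log2 fold change -0.61, adjusted p = 0.274). BZIP28 lay at 198 and 194 in WT 5d and at 112 and 184 in OE 5d (log2 fold change -0.45, adjusted p = 0.363). BZIP60 overlapped, at 575 and 751 in WT 5d and at 430 and 601 in OE 5d. The translocation channel subunit gene At1g29310 lay at 148 and 167 in WT 5d and at 116 and 124 in OE 5d (log2 fold change -0.40, adjusted p = 0.253), and the co-chaperone gene ATERDJ2A at 176 and 182 against 154 and 123 (log2 fold change -0.38, adjusted p = 0.278). In these last 2 the OE 5d arrays were nearer to each other than in BIP3, which was not in the list. Both genes were also lower in OE before drought. At1g29310 lay at 167 and 152 in WT 0d and at 131 and 120 in OE 0d, and ATERDJ2A at 161 and 167 against 150 and 146.

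**Figure D3:**
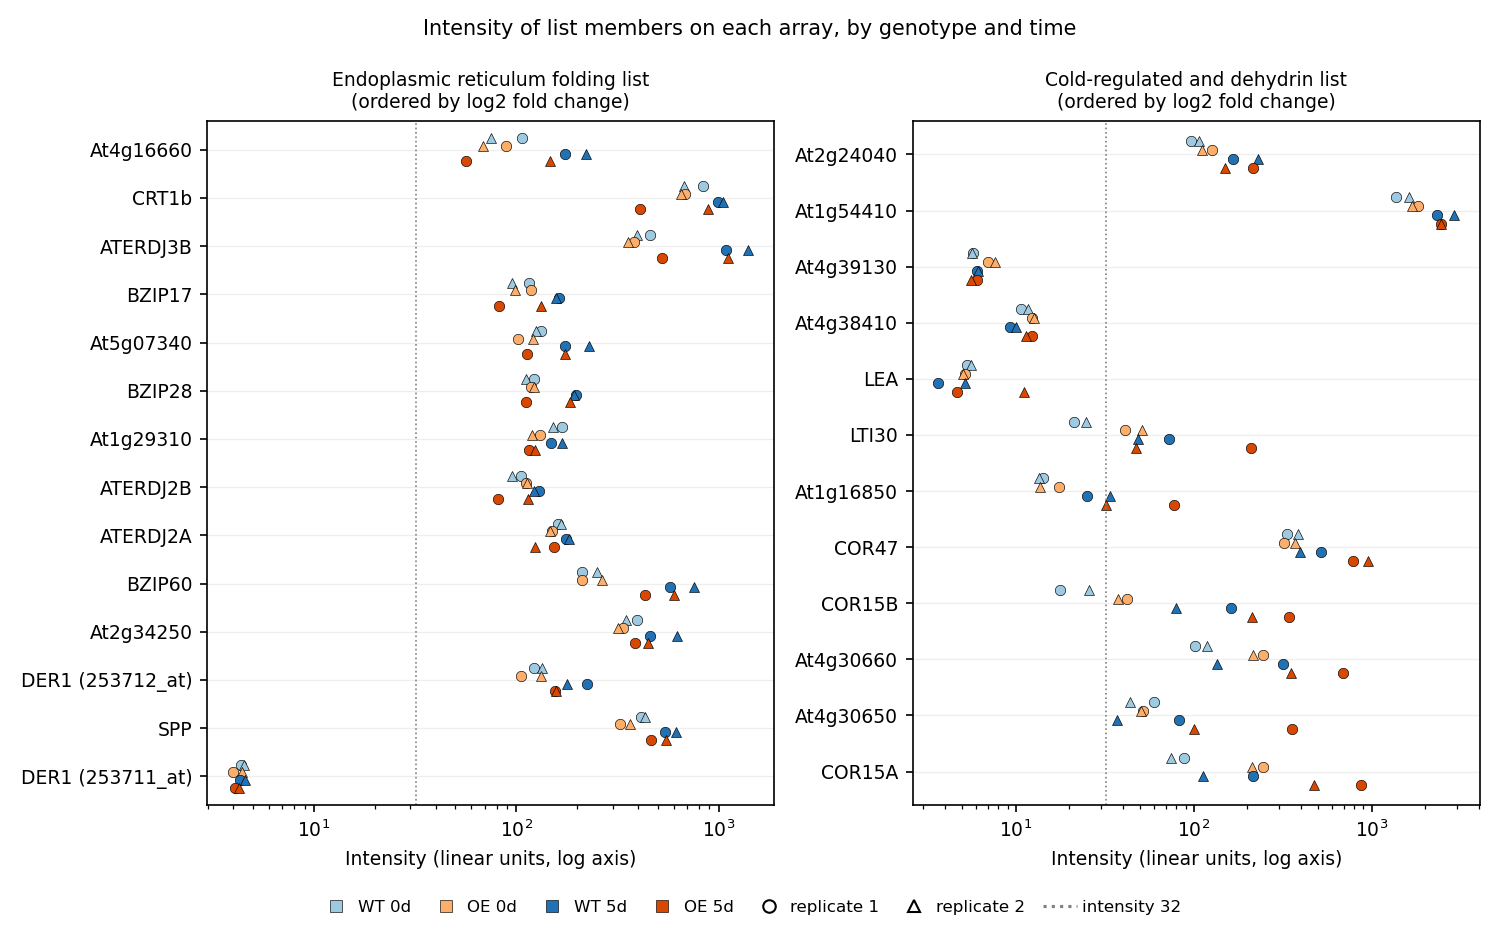
Intensity on each of the 8 arrays (log axis, linear units) of the 14 named probe sets for endoplasmic reticulum folding (left) and the 12 for cold-regulated genes and dehydrins (right), ordered by log2 fold change between OE 5d and WT 5d; colours mark the group, symbols the replicate, and the dotted line an intensity of 32. On the left 11 probe sets have both OE 5d arrays below both WT 5d arrays, and on the right 6 have both above.

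In 4 lists of genes used by dividing and growing cells, more named members lay higher than lower, although many members overlapped. Of 4 named members of the cell cycle and DNA replication list, 3 lay higher and 0 lower, with a median log2 fold change of 0.64. This median was 0.88 with OE 5d replicate 1 alone and 0.40 with replicate 2 alone, and before drought it was -0.65. AUR2, an Aurora kinase of mitosis, lay at 16.6 and 12.002 in WT 5d and at 51.0 and 22.4 in OE 5d (log2 fold change 1.26, adjusted p = 0.203). AUR1 lay at 35.6 and 28.4 in WT 5d and at 73.4 and 38.9 in OE 5d (log2 fold change 0.75, adjusted p = 0.260). PRL, the replication helicase subunit MCM7, lay at 42.9 and 31.5 in WT 5d and at 53.6 and 52.5 in OE 5d (log2 fold change 0.53, adjusted p = 0.255). On every array at 5 d each of the 3 was below its own levels before drought, which lay between 58.9 and 156 over both genotypes and the 3 genes.

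Of 7 named histone genes, 3 lay higher and 0 lower. Their median of 0.20 was 0.51 with OE 5d replicate 1 alone and 0.00026 with replicate 2 alone. The linker histone gene HIS1-3, which is itself induced by drought, lay at 58.1 and 36.2 in WT 5d and at 131 and 223 in OE 5d (log2 fold change 1.90, adjusted p = 0.0977), and was brighter on replicate 2. The core histone genes HTB2 and HTB1 had log2 fold changes of 0.90 and 0.66, neither past the threshold (adjusted p = 0.220 and 0.218). HTB2 lay at 57.2 and 69.2 in WT 5d and at 160 and 85.5 in OE 5d. HTB1 lay at 138 and 123 in WT 5d and at 249 and 170 in OE 5d. Of 9 named tubulin and actin genes, 3 lay higher and 1 lower, with a median of 0.54 that was 0.73 with OE 5d replicate 1 alone and 0.035 with replicate 2 alone. TUB7 lay at 49.5 and 41.2 in WT 5d and at 135 and 64.4 in OE 5d (log2 fold change 1.05, adjusted p = 0.210). TUA1 went the other way, at 238 and 303 in WT 5d and at 144 and 178 in OE 5d (log2 fold change -0.74, adjusted p = 0.181).

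Expansins and xyloglucan endotransglucosylases loosen and rebuild cell walls during growth. Their median of 0.14 was 0.23 with OE 5d replicate 1 alone and 0.024 with replicate 2 alone. Of their 29 named genes 10 lay higher and 2 lower. Several of the 10 were close to background on every array. EXPA16 lay at 105 and 141 in WT 5d and at 254 and 220.5 in OE 5d (log2 fold change 0.96, standard error 0.24, adjusted p = 0.184). XTH16 lay at 31.9 and 29.5 in WT 5d and at 84.0 and 42.9 in OE 5d (log2 fold change 0.97, adjusted p = 0.203). EXPA15 and EXPA8 had log2 fold changes of 0.73 and 0.49, neither past the threshold (adjusted p = 0.245 and 0.285). Before drought, EXPA16 and EXPA8 had also been higher in OE, by log2 fold changes of 1.07 and 0.72. XTH16 and EXPA15 had then been lower, by -0.50 and -0.32. In WT, EXPA16 and EXPA8 were brighter at 5 d than before drought, whereas XTH16 and EXPA15 were dimmer. At the threshold of the study none of the 29 was called.

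Antioxidant enzymes remove reactive oxygen species, which build up in drying leaves. Of 37 genes of the superoxide dismutase, catalase and ascorbate-glutathione list, only 6 had a named probe set. No superoxide dismutase or catalase was among these 6, so the counts say nothing about those enzymes. Of the 6, 4 lay lower, 1 higher and 1 overlapped (median -0.30). The higher one, At5g36270, was near background on the 4 arrays at 5 d, between 9.69 and 11.6. GR1, which regenerates reduced glutathione in the cytosol, lay at 953 and 912 in WT 5d and at 570 and 626 in OE 5d (log2 fold change -0.64, standard error 0.13, adjusted p = 0.142). GR, the glutathione reductase of plastids and mitochondria, lay at 538 and 503 in WT 5d and at 362 and 434 in OE 5d (log2 fold change -0.39, adjusted p = 0.270). In GR1 the arrays within each group were close, and the gap between the groups was wider than either pair. The stromal ascorbate peroxidase gene SAPX and ATMDAR2 had log2 fold changes of -0.45 and -0.21, neither past the threshold (adjusted p = 0.50 and 0.539).

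Of 6 named class III peroxidase genes, 3 lay lower and 0 higher, and 2 of the 3, At3g50990 and Prx37, were near background on every array. At5g64120 lay at 119 and 106 in WT 5d and at 72.7 and 65.6 in OE 5d (log2 fold change -0.70, adjusted p = 0.184), whereas before drought it was brighter in OE, at 129 and 104 against 54.7 and 68.5. Of 14 named glutathione S-transferase genes, 3 lay lower and 1 higher, with log2 fold changes between -0.50 for GSTF4 and 0.69 for GSTU26. GSTU26 was near background on all 4 arrays, between 6.56 and 13.2.

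UDP-glycosyltransferases, which attach sugars to hormones and defence compounds, were the list with the most named genes, 51 of 64. Of them 16 lay lower and 8 higher, and the median was -0.061. UGT76B1, which glucosylates isoleucic acid and thereby tunes salicylic acid defence, lay at 50.4 and 49.5 in WT 5d and at 8.33 and 25.2 in OE 5d (log2 fold change -1.78, standard error 0.45, adjusted p = 0.185). UGT87A2 lay at 857 and 1113 in WT 5d and at 286 and 601 in OE 5d (log2 fold change -1.24, adjusted p = 0.195). UGT73D1 lay at 34.8 and 32.5 in WT 5d and at 9.12 and 21.2 in OE 5d (log2 fold change -1.27, adjusted p = 0.201). These 3 were the members past the study threshold in either direction, and replicate 1 was the dimmer OE 5d array in each. UGT74D1, which glucosylates auxin, differed less but more evenly, at 96.1 and 85.6 in WT 5d and at 68.6 and 61.4 in OE 5d (log2 fold change -0.48, adjusted p = 0.201).

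Other enzyme families of secondary metabolism had members on both sides. Of 22 named cytochrome P450 genes 2 lay higher and 4 lower (median -0.061). Of 22 named beta-glucosidase genes 5 lay higher and 6 lower (median -0.071), with BGLU15 at 0.91 and BGLU45 at -0.58 on the log2 fold change scale, both near background on every array at 5 d.

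Sugar transporters move glucose and sucrose across membranes. Of 20 named members 6 lay higher and 1 lower (median 0.19). SWEET4, a transporter of the plasma membrane, lay at 87.3 and 55.8 in WT 5d and at 151 and 155 in OE 5d (log2 fold change 1.13, standard error 0.22, adjusted p = 0.133). The vacuolar SWEET16 lay at 12.3 and 14.8 in WT 5d and at 18.1 and 20.1 in OE 5d (log2 fold change 0.50, adjusted p = 0.207). SWEET2, also vacuolar, lay at 94.1 and 146 in WT 5d and at 79.0 and 69.4 in OE 5d (log2 fold change -0.66, adjusted p = 0.248). The OE 5d arrays of SWEET4 were close together, and SWEET4 was the only list member past the study threshold.

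Among photosynthesis genes, the 3 named genes of the Calvin cycle all lay lower: RCA with a log2 fold change of -0.31, SBPASE with -0.33 and PRK with -0.68 (adjusted p = 0.338, 0.299 and 0.330). PRK, the phosphoribulokinase, lay at 4522 and 4282 in WT 5d and at 1856 and 4066 in OE 5d, so its difference rested on replicate 1. Of 7 named photosystem and antenna genes, 3 lay higher and 1 lower. LHCB4.3, a light-harvesting protein of photosystem II, was the lower one, at 2137 and 1805 in WT 5d and at 1280 and 1307 in OE 5d (log2 fold change -0.60, adjusted p = 0.172), and its relative LHCB4.2 was higher at 6118 and 4803 against 6966 and 6223 (log2 fold change 0.28, adjusted p = 0.422).

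Hormone and defence lists had few named members. Of 9 jasmonate response genes, THI2.1 lay higher, MYC3 lay lower with a log2 fold change of -0.29 at an adjusted p of 0.401, and 7 overlapped, among them the defensin gene PDF1.2, at 466 and 556 in WT 5d and at 1347 and 289 in OE 5d. The 2 named genes of jasmonate synthesis, OPCL1 and JMT, overlapped too. Of 4 salicylic acid defence genes, 2 lay lower and 0 higher. SAG101, a partner of EDS1, lay at 45.9 and 58.9 in WT 5d and at 18.5 and 38.9 in OE 5d (log2 fold change -0.95, adjusted p = 0.239). RING1 lay at 6114 and 5978 in WT 5d and at 3450 and 5370 in OE 5d (log2 fold change -0.49, adjusted p = 0.348). SAG101 was also 1 of the 2 named leaf senescence genes, and WRKY53, the other, overlapped. Of 7 WRKY genes 1 lay lower and 0 higher.

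Auxin response genes included 2 of the larger differences outside the groups above. IAA29, an auxin-induced repressor, lay at 20.6 and 26.0 in WT 5d and at 89.3 and 45.1 in OE 5d (log2 fold change 1.46, adjusted p = 0.163). WES1, which conjugates auxin and salicylic acid to amino acids, lay at 23.2 and 17.7 in WT 5d and at 42.5 and 62.1 in OE 5d (log2 fold change 1.34, adjusted p = 0.143). Over the 12 named members 3 lay higher and 2 lower. Of 2 named genes of the abscisic acid and drought list, At2g41190 lay higher with a log2 fold change of 0.51 at an adjusted p of 0.374. Of 6 named members of the late embryogenesis abundant list 1 lay higher, near background. This list did not include At3g02480, the gene of that family called above. Of 11 autophagy genes 4 lay higher and 0 lower, all members of the ATG8 family, with log2 fold changes between 0.11 and 0.24.

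**Figure D4:**
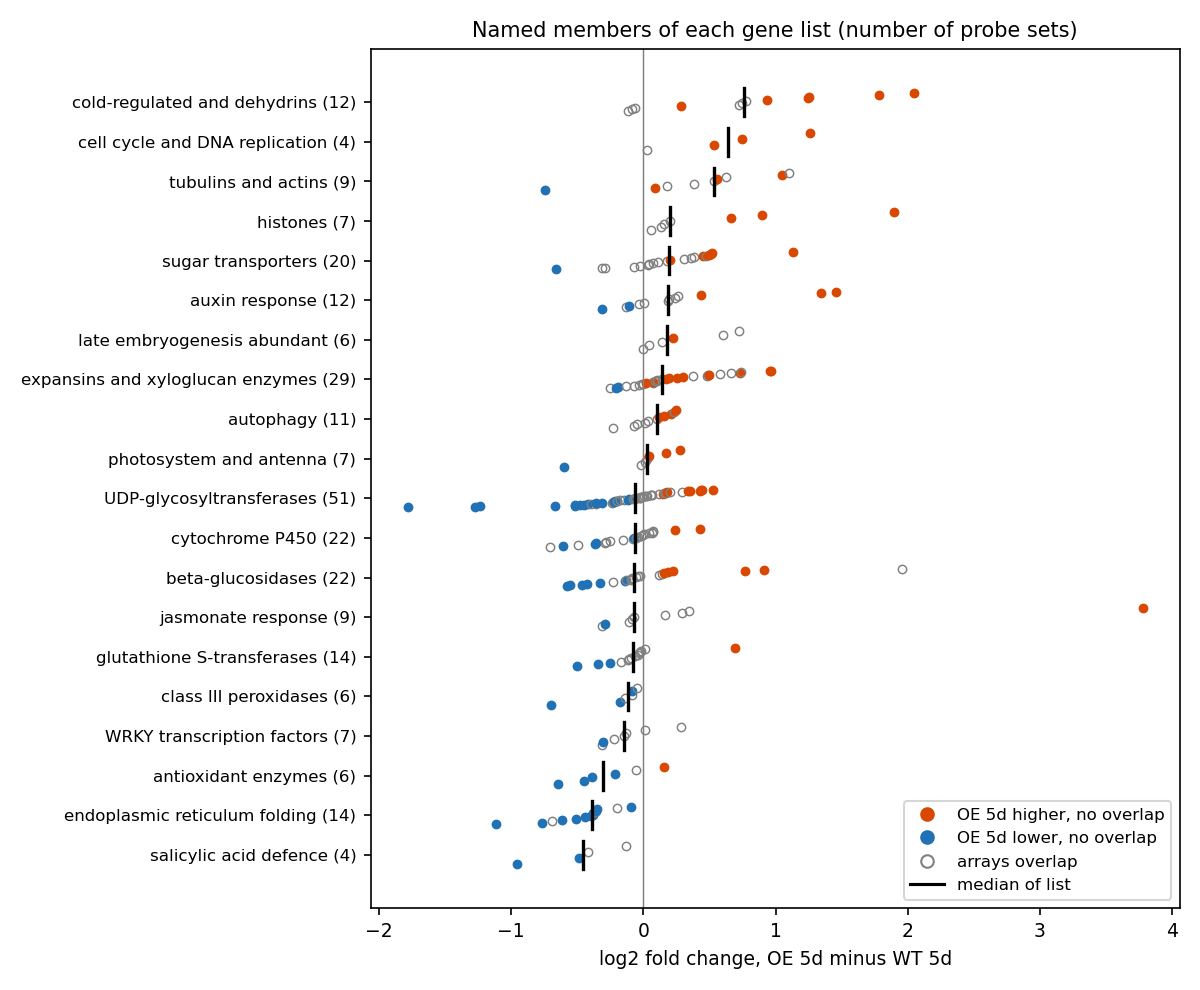
Log2 fold change between OE 5d and WT 5d (x axis) of each named probe set in the 20 gene lists with 4 or more of them, with the number of probe sets after the list's name; filled points had no overlap (orange higher, blue lower), open points overlapped, and the black bar is the median of the list. The cold-regulated list has the highest median (0.76), and the endoplasmic reticulum folding list has 11 of 14 points filled blue.

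The same genes were then looked at before drought, in OE 0d and WT 0d, whose levels did not enter the fold changes and the no-overlap rule at 5 d. These arrays did contribute to the spread behind the p-values used in the selection. Over all probe sets, 5246 (23.1%) lay higher in OE 0d than in WT 0d with no overlap and 5494 (24.2%) lay lower. Of the 288 probe sets higher at 5 d, 166 (57.6%) lay lower in OE 0d and 54 (18.8%) lay higher, with a median log2 fold change at 0 d of -0.39. Of the 163 lower at 5 d, 33 (20.2%) lay lower and 17 (10.4%) higher at 0 d, with a median of -0.04. The median intensity of the 288 went from 109 before drought to 30.3 at 5 d in WT, and from 84.7 to 95.0 in OE. That of the 163 went from 19.6 to 103 in WT and from 19.8 to 48.4 in OE. The medians at 5 d follow from the selection and are given as a description.

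Tested as an interaction, the genotype difference at 5 d minus that at 0 d passed the adjusted threshold at 7 probe sets (limma, Benjamini-Hochberg), and 3375 had an unadjusted p under 0.05. Among the named genes described above it did so at At4g22490 and At5g19120. Of the 7 called probe sets without a gene name, it did so at 247717_at (interaction 4.85, adjusted p = 0.0132) and 253660_at (4.59, adjusted p = 0.000947). At4g22490 lay at 440.2 and 251 in WT 0d and at 20.03 and 11.1 in OE 0d, so the genotypes had stood the other way round before drought, and the interaction was 8.01 (standard error 0.62, adjusted p = 0.0132). For At5g19120 it was 2.42 (standard error 0.23, adjusted p = 0.0256). Among the genes with the opposite sign, the interaction was -1.62 for the peroxidase gene At5g64120 (adjusted p = 0.107) and -1.07 for LHCB4.3 (adjusted p = 0.137), which did not pass. COR15A, with log2 fold changes of 1.49 at 0 d and 2.05 at 5 d, had an interaction of 0.56 (standard error 0.50, adjusted p = 0.636), and SWEET4 had 0.12 (standard error 0.31, adjusted p = 0.891).

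**Figure D5:**
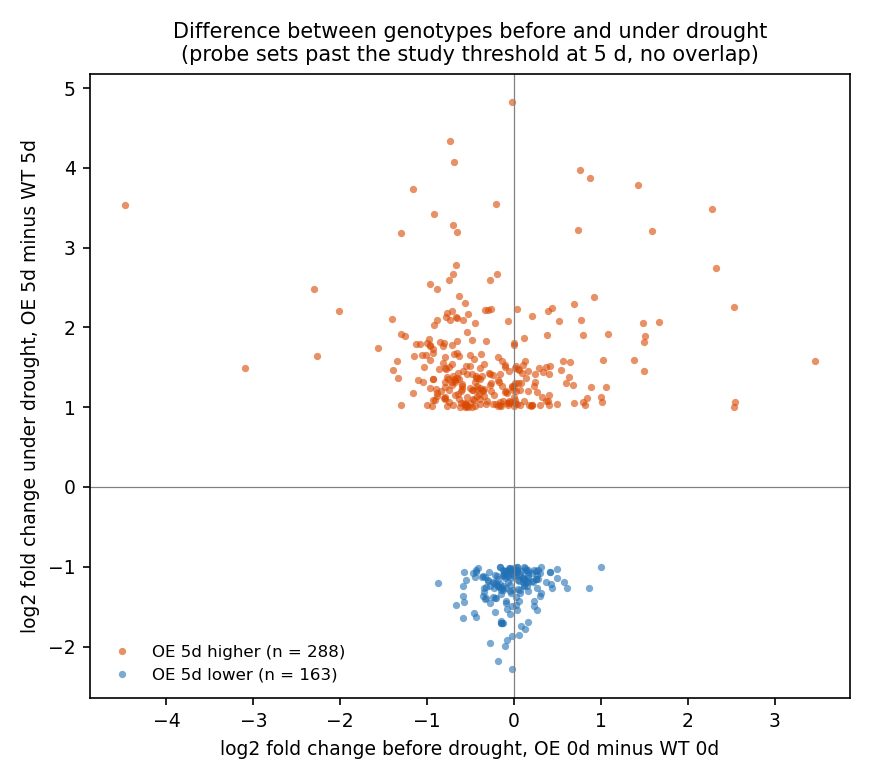
Log2 fold change between OE and WT before drought (x axis) and under drought (y axis) for the 288 higher and 163 lower probe sets past the study threshold at 5 d with no overlap; 1 point is 1 probe set. The higher probe sets have a median of -0.39 on the x axis and the lower ones a median of -0.04.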

How the data were processed

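RNA from leaves was amplified, labelled with biotin, hybridized to the ATH1 array and scanned by a commercial service, per the methods of the study. The values deposited by the authors are linear intensities, 1 per probe set and array, already normalized, and the summarization and normalization software is not given in the sources used here. Log2 was taken here. The 64 array controls were left out, which left 22746 probe sets. Gene names came from the platform annotation, in which 13513 probe sets had 1 gene, 503 had several and 8730 were not listed, with 13435 matched to 1 locus. A further 96 were named from the part of the study's supplementary table held here (206 rows), which lists changed genes, so these names were kept out of the gene lists, and 1 conflicting name was dropped. Roles given for genes are background knowledge. Cross-hybridization between closely related genes was not tested.

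Groups came from the sample titles. The means of 4 groups were fitted to all 8 arrays with lmFit and eBayes of limma 3.58.1 in R 4.3.3, with 2 arrays a group, 4 residual and 3.986 prior degrees of freedom. The steps were tested on simulated data with the same spread in every group. That setting differs from the data, in which the OE 5d pair was the least alike, so it does not bear on the calls. Python 3.11.15, pandas 2.3.3, numpy 2.4.6 and matplotlib 3.10.9 did the rest. The small number of arrays limits the precision. Genes named were those with a name and an adjusted p under 0.05, the 10 highest and 10 lowest log2 fold changes with no overlap, an unadjusted p under 0.05 and a brighter group mean of at least 64, up to 4 members with no overlap from each list by smallest p, and genes the study names. Any other gene was named after its values were seen. The comparison, the members and the lists were chosen with earlier results of these data known. The 4 list members that matched only through the symbol of an unrelated gene were removed after values were seen. Alternatives were the 4 arrays at 5 d alone, a replicate block, quantile normalization, median centring, a floor of 32, a filter at 32, trended robust, unmoderated and weighted fits, arithmetic folds, folds without p and each array left out.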

Additional observations from a re-analysis of the deposited data

Results flagged for a closer look

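The genotype difference itself differed between 5 d and 0 d at 4 of the probe sets described in the report, by the interaction term of the limma fit (Benjamini-Hochberg over all probe sets). At At4g22490 the log2 fold change between OE and WT was -4.48 at 0 d and 3.53 at 5 d, an interaction of 8.01 (standard error 0.62, adjusted p = 0.0132), and both 0 d arrays of OE lay below both of WT while both 5 d arrays lay above. At At5g19120 the interaction was 2.42 (standard error 0.23, adjusted p = 0.0256), again from lower at 0 d (-0.80) to higher at 5 d (1.63). At the unnamed probe set 247717_at it was 4.85 (standard error 0.39, adjusted p = 0.0132), with OE and WT overlapping at 0 d. At the unnamed probe set 253660_at it was 4.59 (standard error 0.23, adjusted p = 0.000947). It lay at 74.2 and 74.9 in WT 0d, at 8.13 and 9.34 in OE 0d, at 9.49 and 7.52 in WT 5d and at 25.3 and 22.4 in OE 5d, so 6 of its 8 values were under 32.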

How the results depend on the processing

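Counts at an adjusted p under 0.05, 11 higher and 0 lower with all arrays, moved with the fit. They were 0 higher with the 4 arrays at 5 d alone or without moderation, 2 higher with array weights, 1 higher without probe sets of a mean under 32, 4 higher and 23 lower with values under 32 set to 32, and 1 lower with median centring or trended robust eBayes. At the study threshold, 297 higher and 165 lower became 123 and 52 with the floor of 32, and 176 and 66 without moderation. Probe sets higher with no overlap, 4457 in all, numbered 2204 with the floor and 2329 without dim probe sets, where fewer were tested or could differ. With 1 array left out, counts ranged from 0 to 2319 higher and 0 to 2354 lower at the adjusted threshold, from 196 to 958 and 55 to 790 at the study threshold, and from 6634 to 9207 and 7257 to 9053 with no overlap. The highest counts at both thresholds came without OE 5d replicate 2 (2319, 2354, 958 and 790), and without OE 5d replicate 1 they were 124, 11, 226 and 55. In the fits with 1 array left out, the group of 1 array added nothing to the estimate of spread. Their counts at both thresholds are hence a description only. The cause of the shifts in counts was not tested. Replicate numbers did not pair the samples by any source, and with 2 per group the deviations of same-numbered WT 5d and OE 5d arrays had r = 0.22, and the other pairs of groups had r between 0.014 and 0.17. With the replicate number as a block, 22 higher and 1 lower passed.

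The 11 called probe sets passed the adjusted threshold in 74 of their 183 values under an alternative and lost it in 109. That tally includes fits with 1 array left out, in which a group of 1 array adds nothing to the estimate of spread. Over all 103 probe sets described, 1 of 1834 values reversed its direction: PSAE-1 went from 0.04 to -0.0081 under quantile normalization. List medians with each OE 5d array alone were added after seeing the data. Among the 20 lists with 4 or more named probe sets, 3 reversed: WRKY from -0.14 to 0.15 and auxin response from 0.19 to -0.051 with replicate 2, and autophagy from 0.11 to -0.043 with replicate 1.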
